A study of Rattus norvegicus with 12 samples.

Results

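The genes described here are those of ethanol metabolism and antioxidant defence. They were chosen by name from a list of 47 genes, and a gene was kept when the array annotation gave at least 1 feature that symbol and no other. This left 31 genes, read from 62 of the 18144 array features. Each of the 31 was read from 1 clone in 2 neighbouring spots, and no clone's identity was checked.

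RNA came from tissue punches labelled NTS, cut from tissue slices and combined, of rats described as alcoholic and of their paired controls. Each group held 6 animals, which the labels number as pairs 1 to 6, and 1 of the 12 arrays was used per animal. The series title calls the treated animals ethanol treated. Strain, age, sex, dose, route and duration of the ethanol treatment are not given in the sources used here, nor what the paired controls received. The animal's RNA was in Cy5 and a reference RNA in Cy3 on every array. What that reference was made of is unknown here, and the labels name its organism partly as unidentified.

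Values are log2 ratios of sample over reference after each array was centred on its median, so 0 is the array's median feature. The direction was taken as likely from the dyes and is not stated with the values; if it runs the other way, every sign below turns. A ratio to this reference is not a level per length of transcript, so it ranks a gene against the reference and not against another gene. For the same reason the labelled tissue could not be checked by the levels of its marker genes. Before centring, array medians lay between 0.35 and 1.85.

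Ethanol is oxidised to acetaldehyde by alcohol dehydrogenases, by the microsomal cytochrome P450 2E1 and, with hydrogen peroxide, by catalase. Where alcohol dehydrogenase is scarce, as in much of the brain, catalase and P450 2E1 are the routes usually considered. Aldehyde dehydrogenases then convert acetaldehyde to acetate. Ethanol oxidation and chronic exposure also generate reactive oxygen species, which are removed by superoxide dismutases, catalase, glutathione peroxidases and peroxiredoxins. Of these, glutathione peroxidases and peroxiredoxins use glutathione or thioredoxin as electron donors.

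No gene of this group was called as higher or lower in alcoholic animals. By limma, with pairs as a block, 0 of the 31 genes had an adjusted p under 0.05; over all 11835 genes or unnamed features tested the share was 0%. The smallest adjusted p of any of the 31 was 0.999. At an unadjusted p under 0.05 there was 1 gene, Gsta2, or 3.23% of the 31, where the share over everything tested was 2.45%. Differences of alcoholic minus control were positive for 13 genes and negative for 18, with a median of -0.01 on the log2 scale; over all features tested 51.7% were positive and the median was 0.01. Of the 29 genes measured on all arrays, 0 went 1 way in all 6 pairs. Of all 11011 genes or unnamed features measured on all arrays, 1.57% did so. The alcoholic and control values overlapped for each of the 31 genes, where Hmox1 had 5 alcoholic values and Prdx3 had 5 control values. The share of overlapping groups over all features was not computed.

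**Figure D1:**
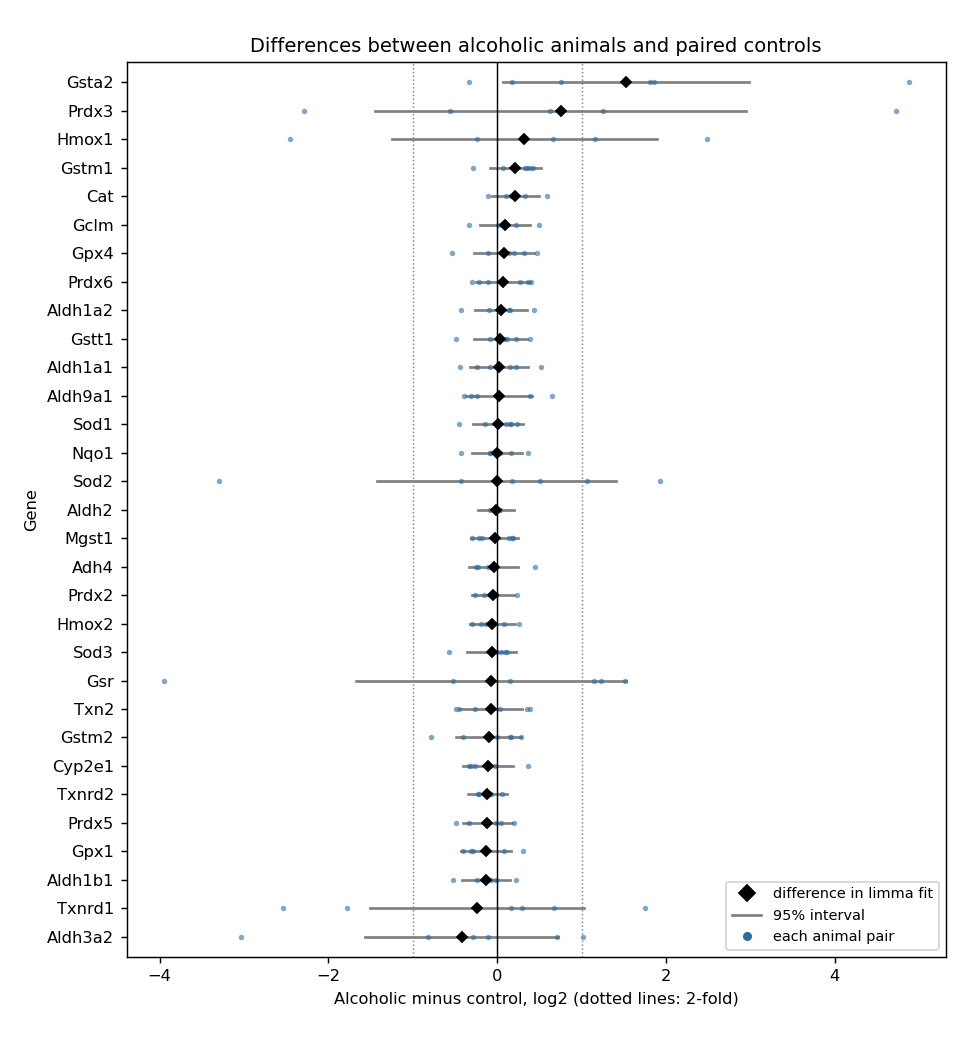
Difference of alcoholic minus control on the log2 scale (x axis) for each of the 31 genes (y axis), with the fitted difference as a diamond, its 95% interval as a grey bar and each animal pair as a blue point; dotted lines mark 2-fold. The 24 genes with narrow bars have intervals within 1.5-fold either way, and the 7 with wide bars reach past 2-fold.

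The intervals fell into a narrow and a wide class. For 24 of the 31 genes, or 77.4%, the 95% interval of the difference lay within a 1.5-fold change either way, where 66.0% of all features tested did so. The other 7, Aldh3a2, Sod2, Gsr, Hmox1, Gsta2, Prdx3 and Txnrd1, had intervals reaching past 2-fold on at least 1 side. Intervals within 2-fold thus made up 77.4% of the 31 genes, below the 86.7% of all features tested. In the first class the differences lay between -0.14 for Aldh1b1 and 0.21 for both Cat and Gstm1. The median standard error was 0.13 over the 31 genes and 0.16 over all features tested. These comparisons are not between like measures, since each of the 31 genes was a mean of 2 spots. Of the 11835 genes or unnamed features tested, 4497 were genes with a single symbol, averaged over their spots, and the rest were single spots. The lower median error therefore does not show that the 31 genes were measured more tightly than others.

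Duplicate spots showed which genes were measured tightly. Both spots gave a value in 347 array readings of the 31 genes, and in 17 of these, or 4.90%, the spots were over 1 log2 unit apart; over all neighbouring spots of 1 accession that share was 3.42%. All 17 readings came from 6 genes: 6 from Txnrd1, 3 from Gsr and 2 each from Aldh3a2, Hmox1, Gsta2 and Prdx3. The SD between the spots of an array was 0.65 to 1.78 in these 6 genes and 0.04 to 0.34 in the other 25. Nqo1, the quinone reductase, had the lowest, 0.04, followed by Aldh1a1, Gclm, Aldh2 and Gpx1 at 0.06 each. The seventh gene with a wide interval, Sod2, had both spots on only 7 arrays. A value of exactly 0 was taken as missing, which removed 27 of 744 spot values, or 3.63%, 9 of them from Prdx3 and 5 each from Sod2, Hmox1 and Gsta2.

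**Figure D2:**
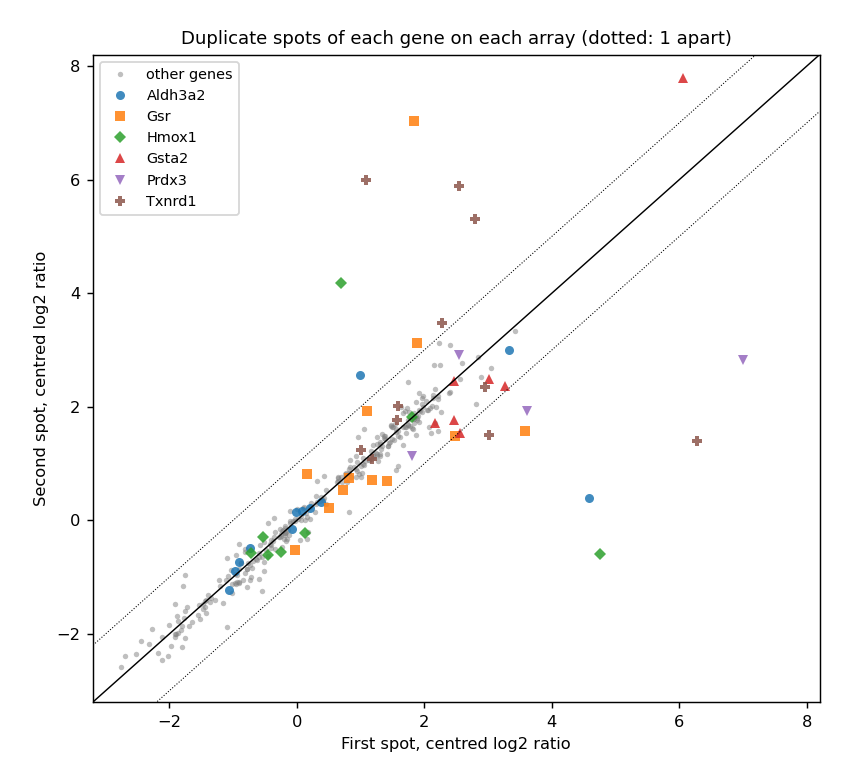
Centred log2 ratio of the second spot (y axis) against the first spot (x axis) for each gene and array where both were measured; dotted lines mark spots 1 log2 unit apart. The 6 coloured genes hold all 17 readings outside the dotted lines, and the 25 genes in grey lie inside them.

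Among the enzymes that oxidise ethanol, 3 were measured. Catalase (Cat), which uses peroxide to oxidise ethanol and otherwise degrades it, had a centred log2 ratio of 0.80, 0.93 and 1.21 (lowest, median and highest) in alcoholic animals and of 0.48, 0.73 and 1.02 in controls. The alcoholic animal was the higher of its pair in 5 of 6 pairs, pair 6 being the exception, and the ranges overlapped. The means were 0.97 ± 0.15 (SD, n = 6) and 0.76 ± 0.19 (SD, n = 6). The difference was 0.21 (SE 0.12, 95% interval -0.07 to 0.49, limma's unadjusted p = 0.116), or 0.30 on 1 spot and 0.13 on the other. Without pair 5, which had the widest difference, 0.58, it was 0.14.

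Cyp2e1, the ethanol-inducible P450 of the endoplasmic reticulum, stood at -1.78, -1.06 and -0.76 (lowest, median and highest centred log2 ratio) in alcoholic animals and at -1.99, -0.88 and -0.66 in controls. Both animals of pairs 5 and 6 lay between -1.99 and -1.48, below all 8 animals of the other pairs, which lay between -1.08 and -0.66. Its difference between groups was -0.11 (95% interval -0.40 to 0.19), lower in 5 of 6 pairs. As folds, the interval ran from 0.756 to 1.14. Adh4, the class II alcohol dehydrogenase, had a difference of -0.04 (95% interval -0.33 to 0.25), with 5 of 6 pairs lower and pair 1 higher by 0.45. Adh1, Adh5 and Adh7 had no feature under their symbol alone and were not analysed here.

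Aldehyde dehydrogenases were measured for 6 of 7 named genes, 3 with positive and 3 with negative differences and 0 called. Aldh2, the mitochondrial enzyme that clears most acetaldehyde, had the narrowest interval of the 31 genes, from -0.23 to 0.20, which corresponds to 0.853-fold and 1.15-fold. Its centred log2 ratio ran from -0.58 to 0.06 in alcoholic animals (median -0.23) and from -0.60 to 0.04 in controls (median -0.18). Animals of a pair stood nearly level: the 6 differences lay between -0.09 and 0.03, while the pairs themselves spanned pair 6 at about -0.6 and pair 4 near 0.

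Aldh1a1 and Aldh1a2, which make retinoic acid from retinal and also act on other aldehydes, differed by 0.02 (95% interval -0.32 to 0.36) and 0.04 (95% interval -0.27 to 0.35). Both had ratios well above the array median, with means of 1.80 and 2.43 over the 12 arrays. Aldh1b1, a mitochondrial relative of Aldh2, stood at -1.15, -0.97 and -0.90 (lowest, median and highest) in alcoholic animals and at -1.31, -0.85 and -0.62 in controls. The alcoholic values all lay inside the control range. Its difference was -0.14 (95% interval -0.42 to 0.15), lower in 5 of 6 pairs; it was -0.001 on 1 spot and -0.28 on the other, and -0.06 without pair 3. Aldh9a1, which handles aminoaldehydes, differed by 0.02 with pairs from -0.39 to 0.65. Aldh3a2, the fatty aldehyde dehydrogenase, differed by -0.42 (SE 0.49), with -3.03 in pair 6 and 0.10 when that pair was left out. Aldh3a1 was not analysed here.

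**Figure D3:**
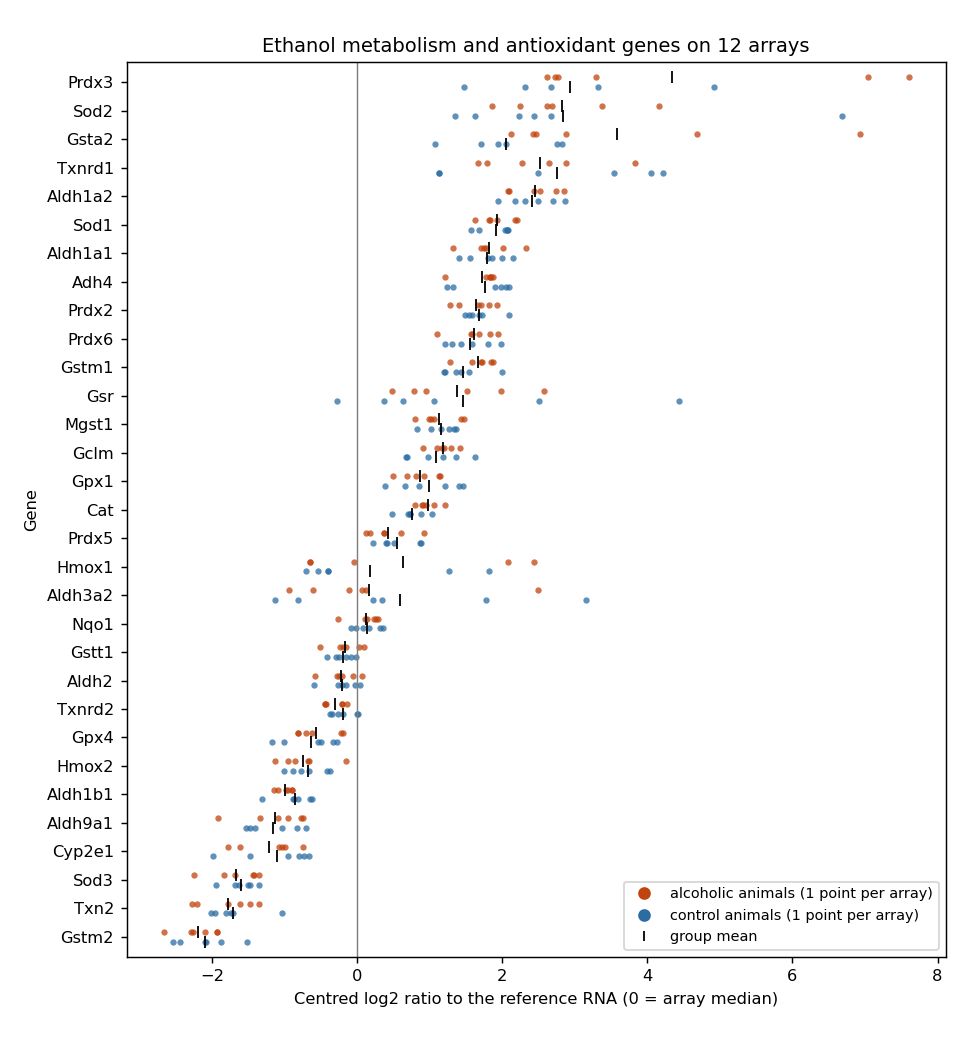
Centred log2 ratio to the reference (x axis, 0 is the array median) of each of the 31 genes (y axis, ordered by mean) in the 6 alcoholic (red) and 6 control (blue) animals, 1 point per array, with group means as black bars. Means run from -2.15 for Gstm2 to 3.70 for Prdx3, and the groups overlap for each gene.

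Of the superoxide dismutases, which turn superoxide into peroxide, the cytosolic Sod1 and the secreted Sod3 differed by 0.01 (95% interval -0.28 to 0.31) and -0.06 (95% interval -0.36 to 0.23). Sod3 had a mean ratio of -1.63 ± 0.27 (SD, n = 12), among the 3 lowest. In alcoholic animals it ranged from -2.25 to -1.36 with a median of -1.56, and in controls from -1.95 to -1.36 with a median of -1.57. The mitochondrial Sod2 had 1.86, 2.65 and 4.16 (lowest, median and highest) in alcoholic animals and 1.34, 2.33 and 6.68 in controls. The highest of these, the control of pair 6, rested on 1 spot. The Sod2 difference of -0.01 had an interval from -1.42 to 1.41, which leaves changes of 2-fold either way inside it. The difference was 0.65 without pair 6 and -0.395 without pair 5. In pair 5 the alcoholic and the control animal were read from different spots. The mean pair difference was 0.56 over 3 pairs on 1 spot and -0.83 over 4 pairs on the other.

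Glutathione peroxidases use glutathione to reduce peroxides. Gpx1, the cytosolic enzyme, stood at 0.50, 0.86 and 1.15 (lowest, median and highest) in alcoholic animals and at 0.38, 1.02 and 1.46 in controls. The difference was -0.13 (95% interval -0.43 to 0.17), lower in 4 of 6 pairs and nearly equal on both spots, -0.14 and -0.12. Gpx4, which reduces lipid peroxides in membranes, differed by 0.08 (95% interval -0.27 to 0.43), with -0.54 in pair 3 and 0.48 in pair 1. Gpx2 and Gpx3 were not analysed here.

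For glutathione synthesis, Gclm, the modifier subunit of the rate-limiting ligase, differed by 0.09 (95% interval -0.20 to 0.39) and was higher in 5 of 6 pairs, with -0.33 in pair 6 and 0.50 in pair 3. Without pair 3 the difference of Gclm was 0.01. Gsr, which regenerates reduced glutathione, had a difference of -0.07 (95% interval -1.67 to 1.53). Its values ran from 0.48 to 2.58 in alcoholic animals and from -0.28 to 4.44 in controls, and the control of pair 6 had spots at 1.84 and 7.03. Without pair 6 the difference of Gsr was 0.70. Gclc and Gss were not analysed here.

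Glutathione transferases, which couple glutathione to reactive compounds such as lipid aldehydes, held the gene with the smallest p, Gsta2. Its centred log2 ratio was 2.12, 2.67 and 6.92 (lowest, median and highest) in alcoholic animals and 1.07, 2.00 and 2.82 in controls. The alcoholic animals of pairs 2, 4 and 3, at 6.92, 4.68 and 2.88, stood above all controls, and the other 3 lay among the controls. The alcoholic animals of pairs 3, 4 and 6 and the controls of pairs 1 and 3 were read from 1 spot. In pair 3 the alcoholic and the control animal were read from different spots. Its mean pair difference was 1.905 over 2 pairs on 1 spot and 1.86 over 5 pairs on the other. The means were 3.58 ± 1.88 (SD, n = 6) and 2.06 ± 0.66 (SD, n = 6). The difference was 1.52 (SE 0.62, 95% interval 0.07 to 2.98, limma's unadjusted p = 0.042, adjusted p = 0.999), higher in 5 of 6 pairs. Pair 2 contributed 4.88, with both of its alcoholic spots high at 6.06 and 7.79. Without pair 2 the difference was 0.85 (SE 0.35), and it was 0.90 with exact zeros kept as values. Close relatives of this gene can bind the same cDNA clone, and their part in these values was not tested.

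Gstm1, a cytosolic transferase of the mu class, was the steadier of the higher transferases. Its centred log2 ratio was 1.28, 1.72 and 1.87 (lowest, median and highest) in alcoholic animals and 1.19, 1.40 and 2.00 in controls. The highest value of all was the control of pair 6, and in the other 5 pairs the alcoholic animal was higher by 0.07 to 0.42. The difference was 0.21 (SE 0.13, 95% interval -0.09 to 0.52, limma's unadjusted p = 0.141), and 0.21 on each spot. Without pair 6 it was 0.31, with limma's unadjusted p of 0.035 and an adjusted p of 0.999. As pair 6 was the only pair with the control higher, leaving it out could only raise the difference. Leaving out any other pair gave 0.172 to 0.242, with limma's unadjusted p from 0.160 to 0.296.

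The mu class gene Gstm2 had the lowest mean ratio of the group, -2.15 ± 0.32 (SD, n = 12), and differed by -0.10 (95% interval -0.48 to 0.29). It lay between -2.67 and -1.93 in alcoholic animals (median -2.18) and between -2.54 and -1.52 in controls (median -2.09). Gstt1, of the theta class, and the membrane-bound Mgst1 differed by 0.04 and -0.03, with intervals within 1.5-fold. Gsta1, Gsta4, Gstm3, Gstp1 and Gstt2 were not analysed here.

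Heme oxygenases break down heme, and quinone reductase detoxifies quinones; Hmox1 and Nqo1 are classical targets of the stress-responsive transcription factor Nfe2l2. Nqo1 had one of the closest spot agreements on the arrays. It stood at -0.26, 0.18 and 0.29 (lowest, median and highest centred log2 ratio) in alcoholic animals and at -0.08, 0.12 and 0.35 in controls. The difference was -0.01 (95% interval -0.30 to 0.29), with 3 pairs higher and 3 lower, so a change beyond 1.5-fold lay outside the interval.

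Hmox1, the inducible heme oxygenase, ran from -0.65 to 2.43 in 5 alcoholic animals (median -0.05) and from -0.71 to 1.81 in 6 controls (median -0.41). The fit used the 5 pairs with both animals measured and gave 0.32 (95% interval -1.24 to 1.89), with a difference of -0.22 without pair 2 and 1.02 without pair 6. The spots of the alcoholic animal of pair 2 stood at 4.76 and -0.60, so this gene's values say little either way. The constitutive Hmox2 differed by -0.06 (95% interval -0.32 to 0.21).

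Most peroxiredoxins reduce peroxides with electrons from thioredoxin, and 4 of 6 named genes were measured. Prdx2, a cytosolic form abundant in neurons and red blood cells, differed by -0.05 (95% interval -0.30 to 0.20) and was lower in 5 of 6 pairs. Prdx5 and Prdx6 differed by -0.12 (95% interval -0.41 to 0.17) and 0.07 (95% interval -0.26 to 0.39). The mitochondrial Prdx3 had the highest mean ratio, 3.70 ± 1.98 (SD, n = 11), and the widest spread. It stood at 2.62, 3.03 and 7.60 (lowest, median and highest) in 6 alcoholic animals and at 1.48, 2.67 and 4.92 in 5 controls. The alcoholic animals of pairs 1 and 4 were the high ones, each read from 1 spot. The control of pair 1 had no value, so the difference of Prdx3 came from the other 5 pairs. It was 0.75 with an interval from -1.45 to 2.95. In pair 4 the alcoholic and the control animal were read from different spots. The mean pair difference was -1.12 over 3 pairs on 1 spot and 1.20 over 2 pairs on the other. Leaving out a pair moved the fitted difference between -0.24 (without pair 4) and 1.51 (without pair 5). Prdx1 and Prdx4 were not analysed here.

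Thioredoxin carries electrons to peroxiredoxins, and its reductases recharge it; all 3 measured genes of this system had negative differences, with 0 called. Txnrd2, the mitochondrial thioredoxin reductase, stood at -0.44, -0.32 and -0.14 (lowest, median and highest) in alcoholic animals and at -0.37, -0.23 and 0.01 in controls. It was lower in 5 of 6 pairs, by 0.07 to 0.23, and higher by 0.06 in pair 3. The difference was -0.12 (SE 0.10, 95% interval -0.34 to 0.11, limma's unadjusted p = 0.274), which puts a fall below 0.787-fold outside the interval.

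Txn2, the mitochondrial thioredoxin, had a low mean ratio of -1.75 ± 0.35 (SD, n = 12) and differed by -0.07 (95% interval -0.44 to 0.30), with 3 pairs each way. It ranged from -2.28 to -1.36 in alcoholic animals (median -1.70) and from -2.02 to -1.03 in controls (median -1.78). Txnrd1, the cytosolic reductase, had a difference of -0.24 (95% interval -1.51 to 1.02), although the alcoholic animal was higher in 4 of 6 pairs. Its spots were over 1 log2 unit apart on 6 of 11 arrays. Its mean difference was 1.10 over 6 pairs on 1 spot and -1.87 over 5 pairs on the other. Txn1 was not analysed here.

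The direction of the 31 genes differed from pair to pair. In pair 4, 25 of 31 genes were higher in the alcoholic animal, 80.6%, where 49.8% of all features tested were. In pair 6, 8 of 31 were higher, 25.8%, where 43.7% of all features were. The medians over the genes were 0.16 in pair 4 and -0.13 in pair 6. The count was 18 of 29 in pair 1 and between 13 and 15 of 31 in pairs 2, 3 and 5. Whether these shares differ between pairs was not tested.

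The control array of pair 6 held the highest control value of Aldh3a2, Sod2, Gsr, Hmox1, Gclm, Gstm1, Cat, Aldh1a1 and Nqo1, and the lowest control value of Aldh2, Cyp2e1, Sod3, Hmox2, Prdx5 and Txn2. Any control array holds an extreme value for some genes, and the share over all features was not counted. For Aldh2, Hmox2, Prdx5 and Txn2 the alcoholic animal of pair 6 was also the lowest of its group. The control array of pair 6 was also the array with the lowest median before centring, 0.35, the most exact zeros, 726, and the widest spread, with a median absolute deviation of 1.23 where the other 11 lay between 0.84 and 1.12. Without pair 6 the difference was 0.10 for Aldh3a2, 0.65 for Sod2, 0.70 for Gsr, 1.02 for Hmox1, 0.28 for Cat and 0.31 for Gstm1, and none passed the adjusted threshold in limma's test.

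**Figure D4:**
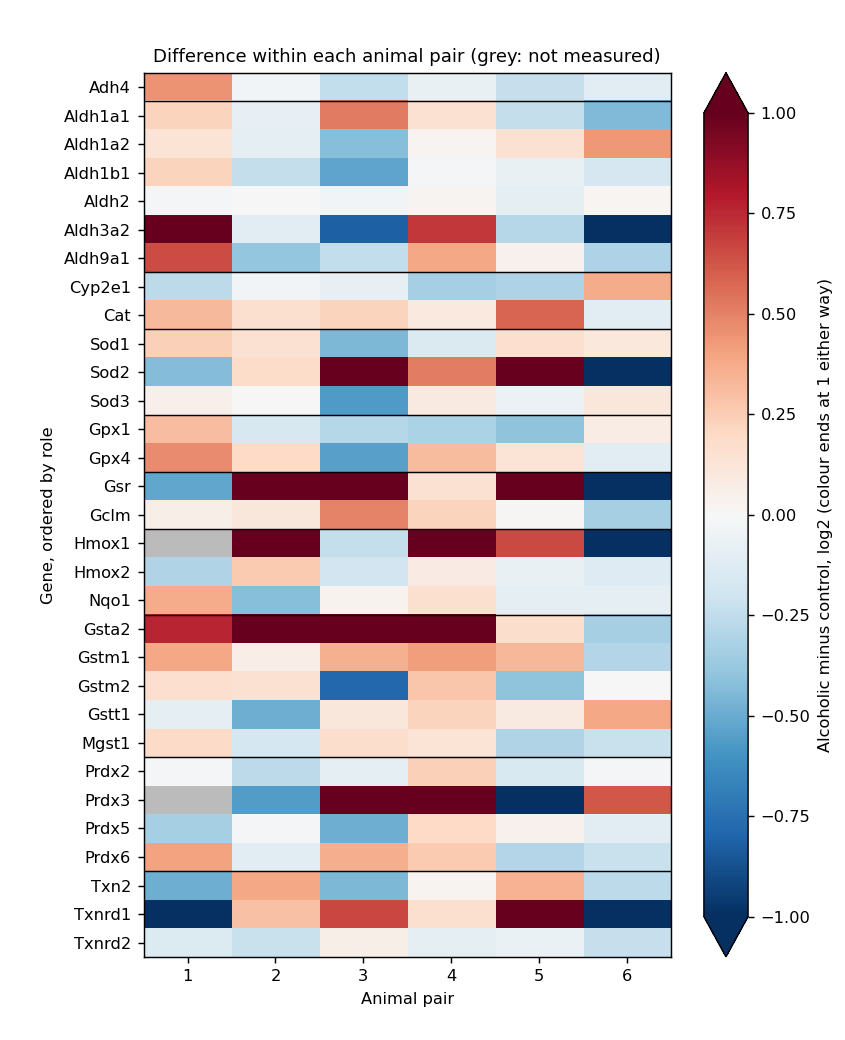
Alcoholic minus control on the log2 scale within each of the 6 animal pairs (columns) for the 31 genes (rows, ordered by role with lines between roles); red is higher in the alcoholic animal, blue lower, grey not measured, and colours end at 1 either way. Pair 4 is mostly red, with 25 of 31 genes higher, and pair 6 mostly blue, with 23 lower.

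Spread between and within pairs was compared for each gene. The SD of the pair means is that of a mean over both animals, while the SD within pairs is that of a single animal. The scales therefore differ, and without any pair effect the first would be the smaller. Equal values are not a neutral point for the counts below. Among the 29 genes complete on all arrays, the SD of the pair means exceeded the SD within pairs for 20. Of all complete genes or unnamed features, 48.2% showed this. For Aldh2 the SD of the pair means was 0.22 and the SD within pairs 0.03. Only 1 of the 11011 complete genes or unnamed features had a smaller SD within pairs, and the median over all of them was 0.27. Aldh2 was a mean of 2 spots, while features not under a single symbol were single spots, so this rank is not among like measures. Cyp2e1 had 0.45 between and 0.19 within pairs, Gpx1 0.33 and 0.19, and Txnrd2 0.14 and 0.08. For Cat and Nqo1 the SD of the pair means was the smaller, 0.12 and 0.14, against 0.17 and 0.19 within pairs. Given the scales, this alone does not set them apart from genes without a pair effect.

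A test of the pair term was added after these values were seen, limma's moderated F test over the 5 pair contrasts. By this test 0 of the 29 genes had an adjusted p under 0.05, against 0.236% of all complete genes or unnamed features. At an unadjusted p under 0.05 there were 4, Cyp2e1, Aldh3a2, Gpx1 and Hmox2, or 13.8%, below the 20.7% of all complete genes or unnamed features. The smallest adjusted p was 0.127, for Cyp2e1. Aldh2 had an unadjusted p of 0.062, since limma draws its very small SD toward that of other genes. What the animals of a pair shared beyond the label, and whether their arrays were processed together, has no source here, so the pair and its handling cannot be told apart.

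**Figure D5:**
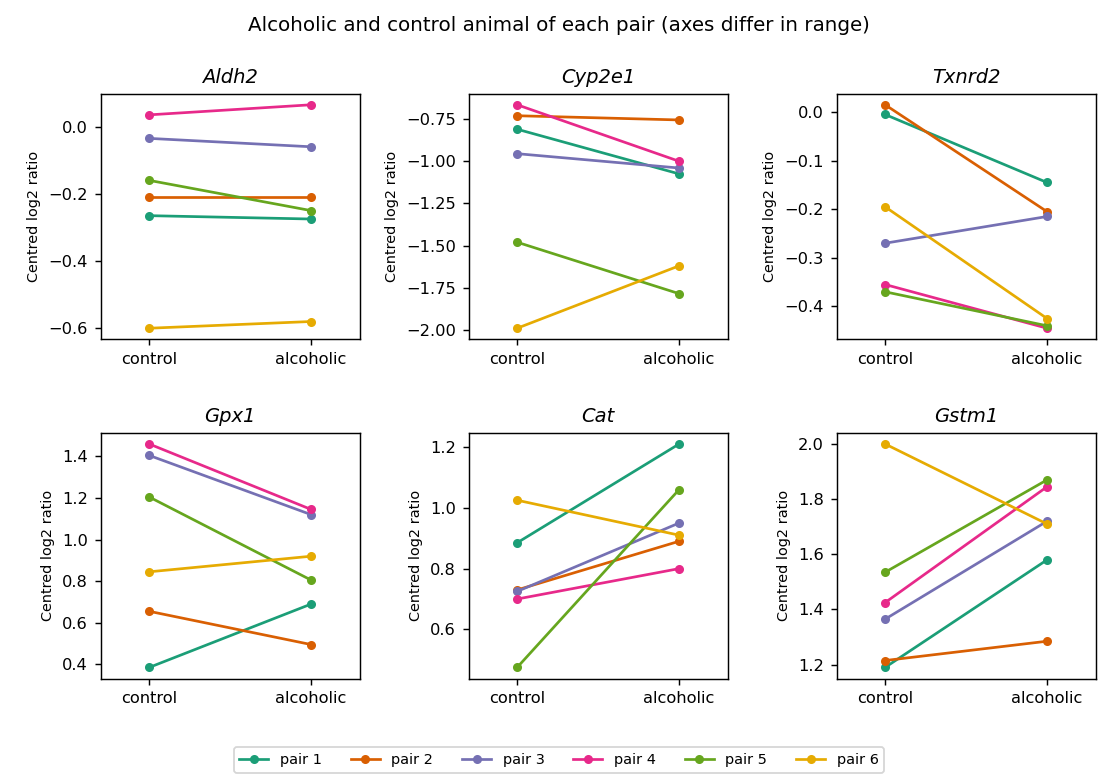
Centred log2 ratio (y axis, range differs between panels) of the control and the alcoholic animal of each pair, joined by a line and coloured by pair, for 6 genes. The Aldh2 lines are nearly flat and far apart, with differences from -0.09 to 0.03, while those of Cat and Gstm1 rise in 5 of 6 pairs.

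Other genes of these pathways were read from lists that were drawn up by function. Of 140 such genes 65 were measured, 35 with positive and 30 with negative differences and a median of 0.02, and 0 were called by limma's test. At an unadjusted p under 0.05 there was 1 of the 65, where 2.45% of all features tested were: Selenos, a selenoprotein of the endoplasmic reticulum, at -0.38 (95% interval -0.66 to -0.11, lower in 6 of 6 pairs, limma's unadjusted p = 0.013, adjusted p = 0.999). The next smallest p belonged to Nqo2, the relative of Nqo1, at 0.22 (95% interval -0.02 to 0.47, higher in 6 of 6 pairs), to Selenop, the plasma selenium carrier, at 0.37 (95% interval -0.08 to 0.81), and to Akr1a1, an aldehyde reductase, at -0.28 (95% interval -0.64 to 0.08, lower in 5 of 6 pairs). Txnip, at 0.15 (95% interval -0.08 to 0.37), was also higher in 6 of 6 pairs. A difference of 1 sign in all 6 pairs was seen for Selenos, Nqo2 and Txnip among the 62 pathway genes with values in all pairs. Of all complete genes or unnamed features 1.57% showed this. Of the 18 genes around Nfe2l2 and its targets 9 were higher and 9 lower (median 0.01). The 14 genes of aldehyde and acetate metabolism had a median of 0.02, the 15 other glutathione and thioredoxin genes -0.01 and the 18 other redox genes 0.02.

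Markers of cell types that a punch can hold did not pass the test either. Of 6 measured astrocyte markers 5 were higher in alcoholic animals, with a median difference of 0.20, and their mean ratio ranged from -0.06 to 1.20 in alcoholic and from -0.12 to 0.56 in control animals. All 4 endothelial markers were lower, with a median of -0.125 and mean ratios of -0.27 to 0.17 against -0.09 to 0.37. The 4 neuron, 4 oligodendrocyte and 5 red blood cell markers had median differences of 0.03, -0.02 and -0.01, with 2 of 4, 2 of 4 and 1 of 5 higher. All 4 microglia markers were higher, with a median of 0.04, as were 5 of 7 markers of choroid plexus and meninges, with a median of 0.17. The part of cell composition in the differences above was not tested, and fewer cells of a type cannot be told apart from less RNA per cell.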

How the data were processed

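RNA was isolated, amplified and indirectly labelled, per the labels. The values analysed are the log2 ratios the authors deposited for 12 arrays with 2 colours; their background correction, filters, normalization, direction and log base are not given in the sources used here, and base 2 was read from the size of the values. Intensities of single channels were not used here. Exact zeros were treated as missing, and the array's median was subtracted from every value. Names came from an older platform annotation, and features sharing 1 single symbol were averaged.

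A gene or unnamed feature was fitted where at least 4 pairs had both animals measured, with lmFit and eBayes of limma 3.58.1 (R 4.3.3) and the pair as a fixed block, with Benjamini-Hochberg adjustment over all 11835 at 0.05 and two-sided 95% intervals. The labels state the pairs. The test was tested on simulated data. The 6 animals per group are the replicates, and their number limits the precision.

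The genes and lists were chosen with earlier results of these data known. All 31 genes are named; values by group are given for the 6 with the smallest p, the 3 highest, 3 lowest and 3 most variable ratios, and for Cat, Aldh2, Cyp2e1, Hmox1 and Nqo1. Of the pathway lists, the 4 smallest p are named. Values of a few further genes were added after they were seen. Alternatives were no pair block, zeros kept, no centring, scaling, quantile normalization, single features, other filters, another prior, each pair left out and, chosen after seeing the data, readings left missing where spots disagreed by over 1.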

Additional observations from a re-analysis of the deposited data

Results flagged for a closer look

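In 5 of 62 sets of 5 or 6 values, 1 animal stood apart by its gap to the nearest other, where chance gives about 3. Among alcoholic animals, Adh4 was at 1.22 in pair 2 with the other 5 between 1.77 and 1.86, and its spots stood at 1.55 and 0.88. Nqo1 was at -0.27 in the same animal, below 0.11 to 0.29, with spots at -0.25 and -0.28. Aldh3a2 was at 2.48 in pair 4, above -0.94 to 0.12, but its spots stood at 4.58 and 0.39. Among controls, Sod2 was at 6.68 in pair 6, above 1.34 to 2.68, on 1 spot. Txn2 was at -1.03 in the control of pair 3, above -2.02 to -1.72, with spots at -0.95 and -1.12. All are centred log2 ratios.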

How the results depend on the processing

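Over 16 alternatives, 0 of those of the 31 genes that could be fitted had an adjusted p under 0.05 for the group difference by limma, the smallest being 0.525 for Gsta2 without centring. Without the pair as a replicate block, 142 features had an unadjusted p under 0.05 where the main fit had 290; leaving out pairs gave 214 to 438. The unadjusted p of Gsta2 was 0.054 without the block and 0.326 with exact zeros kept. Without centring, differences were lower by about 0.05 for genes measured in 6 pairs, and Hmox1 and Prdx3, with 5 pairs, went to 0.14 and 0.57. In that setting 4 features were called, 8 genes were higher in place of 13, and the median ratio of the genes was 1.76. There 3 genes (Aldh3a2, Gsta2, Sod2) passed the pair test, as did 3.29% of all complete genes or unnamed features. With disagreeing spots left missing, Gsr, Hmox1, Prdx3 and Txnrd1 fell under 4 pairs and could not be fitted.

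The sign of the difference changed for 19 genes under at least 1 alternative, 8 of them only by leaving out a pair. It held for the other 12, with Gpx4 falling to 0.00 without pair 1. Without centring the values were -0.03 for Aldh1a1, -0.0125 for Aldh1a2, -0.03 for Aldh9a1, -0.0417 for Sod1 and -0.0142 for Gstt1. With arrays also scaled they were -0.00411 for Aldh1a1, -0.0333 for Aldh1a2, -0.0325 for Sod1, 0.0845 for Sod2 and 0.0737 for Gsr. Quantile normalization gave -0.0432 for Aldh1a2, -0.0273 for Sod1, 0.0618 for Sod2, 0.0197 for Gsr and 0.00646 for Nqo1. Single features gave 0.12 for Adh4, -0.14 for Aldh1a2, 0.49 for Gsr, -0.57 for Hmox1, 0.0158 for Nqo1, -0.0725 for Gstt1 and 1.10 for Txnrd1. Exact zeros kept gave 0.43 for Sod2 and 0.00333 for Txnrd1. The cause of these changes was not tested.

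Leaving out each pair in turn, the ranges were -0.139 to 0.001 for Adh4, -0.077 to 0.115 for Aldh1a1, -0.039 to 0.133 for Aldh1a2, -0.021 to 0.003 for Aldh2, -0.709 to 0.102 for Aldh3a2 and -0.103 to 0.105 for Aldh9a1. They were -0.035 to 0.103 for Sod1, -0.395 to 0.651 for Sod2, -0.098 to 0.038 for Sod3, -0.389 to 0.704 for Gsr, -0.22 to 1.02 for Hmox1 and -0.082 to 0.077 for Nqo1. They were -0.175 to 0.038 for Gstm2, -0.031 to 0.144 for Gstt1, -0.076 to 0.022 for Mgst1, -0.244 to 1.51 for Prdx3, -0.001 to 0.139 for Prdx6, -0.163 to 0.011 for Txn2 and -0.641 to 0.219 for Txnrd1. For the 12 genes that kept their sign the ranges were -0.206 to -0.056 for Aldh1b1, -0.203 to -0.062 for Cyp2e1, 0.139 to 0.279 for Cat, -0.217 to -0.076 for Gpx1, 0 to 0.203 for Gpx4 and 0.014 to 0.179 for Gclm. They were -0.123 to -0.011 for Hmox2, 0.854 to 1.895 for Gsta2, 0.172 to 0.314 for Gstm1, -0.107 to -0.008 for Prdx2, -0.182 to -0.044 for Prdx5 and -0.15 to -0.093 for Txnrd2. Without pair 6, 2 of the 31 genes, Gsta2 and Gstm1, had an unadjusted p under 0.05 by limma. For both genes pair 6 was the only pair with the control higher, so leaving it out could only raise the difference. Signal over background was not used here, so what it limits is unknown.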
